A study of Mus musculus with 6 samples.

Results

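The Notch pathway was followed through 10 genes, the receptors Notch1, Notch2, Notch3 and Notch4, the ligands Jag1, Jag2 and Dll4, and the target genes Hes1, Hey1 and Heyl. They are 10 of the 55802 rows of the gene count table, chosen by symbol through their Ensembl identifiers, and each symbol matched a single row. The libraries were made from liver of wild-type C57BL/6 mice. For 3 of them the treatment was carbon tetrachloride (CCl4), a solvent that is toxic to the liver once metabolised there and is used to model fibrosis in rodents. For the other 3, the controls, it was oil, and the labels name no other treatment, allele or age for either group. The labels give no dose, duration or sex. Whether each library is a different mouse is not stated, so p-values here reflect only how far these 6 libraries scatter, and that scatter may be technical.

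Notch receptors are single-pass membrane proteins that are switched on by Jagged and Delta-like ligands on a neighbouring cell. Ligand binding lets ADAM proteases and then gamma-secretase cut the receptor, and its intracellular part moves to the nucleus, where it joins the DNA-binding protein RBPJ and turns on repressors of the HES and HEY families. In the liver, Jag1 and Notch2 are needed for bile duct formation, Dll4, Notch1 and Notch4 act in endothelial cells, and Notch3 is found mainly in the mural cells around vessels.

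The library totals lay between 18929972 and 20042731 counts. Levels below are CPM, counts scaled to a common library size adjusted by the trimmed mean of M-values (TMM), and a gene is called where its p-value, adjusted over the 15579 genes that entered the edgeR quasi-likelihood fit, is under 0.05. Each log2 fold change is that of CCl4 livers over controls. CCl4 replicate 3 was the least like the others of its group over all genes. Its log2 CPM correlated at 0.985 with both CCl4 replicate 1 and CCl4 replicate 2, which correlated at 0.993 with each other. The liver label was borne out by the hepatocyte gene Alb, at 73971 ± 1664 CPM in CCl4 livers and 71800.2 ± 3609 CPM in controls (SD, n = 3 each), with no call (log2 fold change 0.04, adjusted p = 0.655) except with library size alone (0.19, adjusted p = 0.0446). In bulk tissue, fewer cells of a type and less RNA per cell cannot be told apart.

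Of the 10 genes, 9 passed the filter on low counts. Hey1 and Notch3 were called higher and Notch1 was called lower in CCl4 livers, and the other 6 were not called. Over all genes tested, 41.3% were called, 21.2% higher and 20.1% lower, so 3 of 9 is no more than the share seen across the liver transcriptome. For Notch1, Notch3 and Hey1, 3 of 9, the CPM ranges of the groups lay apart, against 54.0% of all genes (27.6% higher and 26.4% lower in CCl4 livers). The median log2 fold change of the 9 genes was 0.11, against 0.00056 for all genes tested, and the median size of the change, without its sign, was 0.26 against 0.28.

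**Figure D1:**
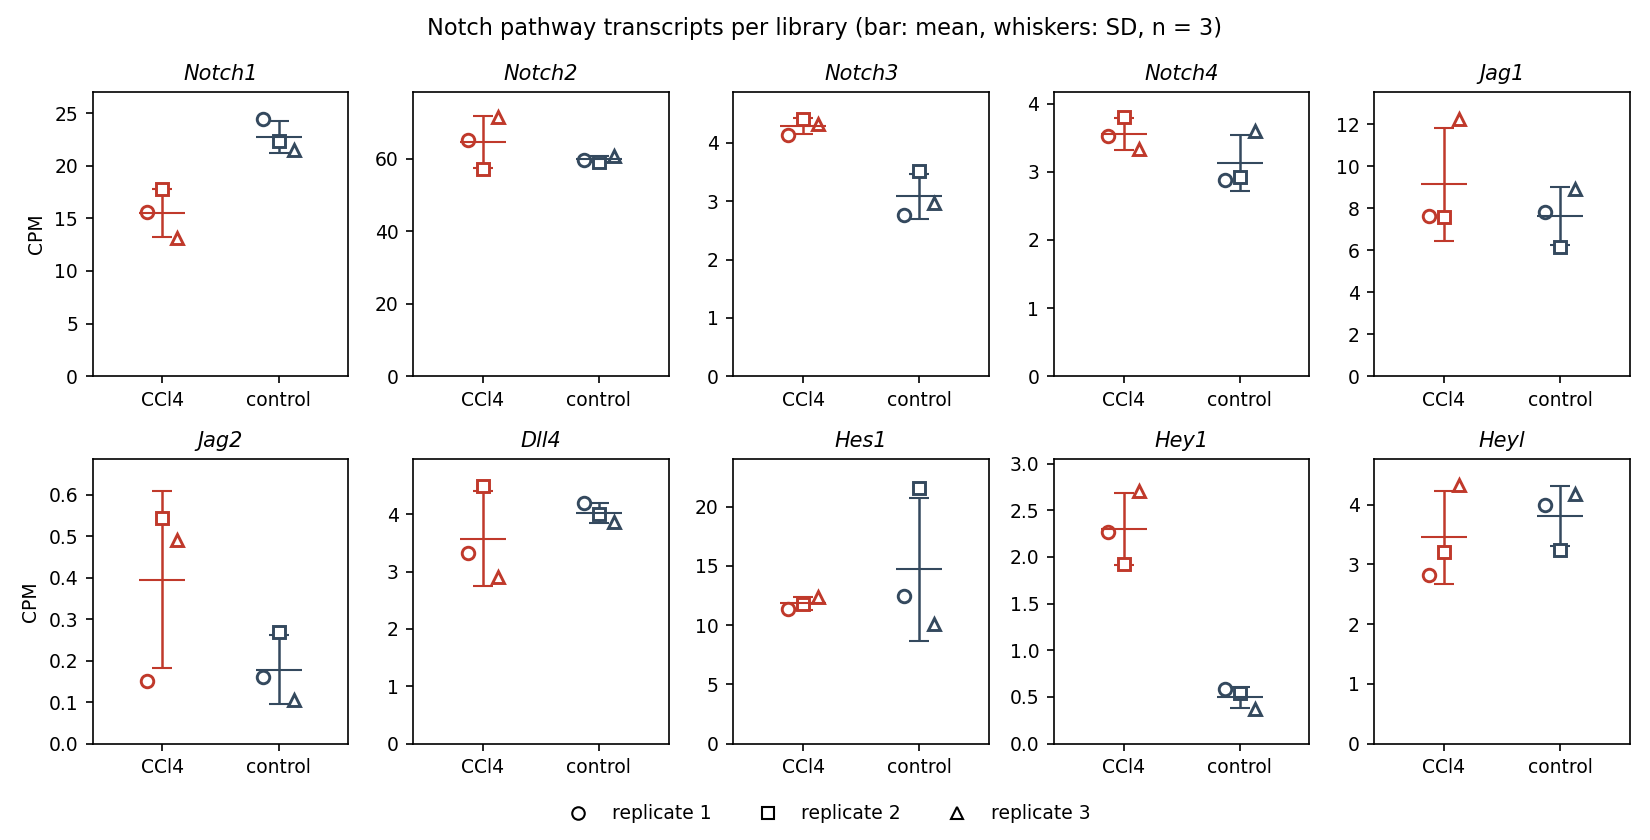
CPM of the 10 Notch pathway genes in each library, with 1 panel per gene and a separate axis from 0 in each. CCl4 livers are on the left and controls on the right, points are libraries, and bars and whiskers are means and SDs (n = 3). The 3 CCl4 points lie above all control points for Notch3 and Hey1 and below them for Notch1.

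Among the receptors, Notch1 fell and Notch3 rose, while Notch2 and Notch4 were not called. Notch1 (ENSMUSG00000026923), a receptor of endothelial and other cells, stood at 15.6, 17.8 and 13.2 CPM in CCl4 livers (310, 359 and 268 counts) and at 24.4, 22.3 and 21.5 CPM in controls (459, 413 and 405 counts). Every CCl4 library lay below every control. The log2 fold change was -0.55 (SE 0.11, adjusted p = 0.00324). Notch1 was thus 1.47-fold lower (95% interval 1.23 to 1.74). The call held without any 1 of the 6 libraries, at log2 fold changes of -0.66 to -0.45.

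Notch3 (ENSMUSG00000038146) stood at 4.13, 4.40 and 4.32 CPM in CCl4 livers (82, 89 and 88 counts) and at 2.77, 3.51 and 2.97 CPM in controls (52, 65 and 56 counts). The CCl4 libraries lay close together and above the controls, with a log2 fold change of 0.48 (SE 0.15, adjusted p = 0.034), or 1.39-fold (95% interval 1.09 to 1.77). This call was weak. It was lost without CCl4 replicate 1 (adjusted p = 0.0649), CCl4 replicate 2 (0.0924), CCl4 replicate 3 (0.0503), control replicate 1 (0.113) or control replicate 3 (0.094), with no filter on low counts (0.0696) and in DESeq2 (0.16).

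Notch2 (ENSMUSG00000027878), the receptor of bile duct formation, had the highest level per kb of the 4. It stood at 65.3, 57.3 and 71.6 CPM in CCl4 livers and at 59.6, 59.2 and 60.9 CPM in controls, so the groups overlapped, and the CCl4 libraries spread more widely than the controls. Its log2 fold change was 0.11 (SE 0.08, 95% interval -0.06 to 0.29, adjusted p = 0.276). With library size as the only scaling it was called higher, at 0.26 (adjusted p = 0.0312), a setting that moved the median of all genes to 0.147. Notch4 (ENSMUSG00000015468), a receptor of endothelium, stood at 3.53, 3.81 and 3.34 CPM in CCl4 livers and at 2.87, 2.92 and 3.605 CPM in controls, where control replicate 3 lay within the CCl4 range (0.18, SE 0.16, 95% interval -0.18 to 0.55, adjusted p = 0.403).

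Levels of different genes were compared as CPM per kb of the union of annotated exons. Summed over the 4 receptors, the level was 8.07 ± 0.471 CPM per kb in CCl4 livers and 7.92 ± 0.058 in controls (SD, n = 3 each), and the groups overlapped. Within that sum the make-up differed. Notch1 made up 13.6, 16.5 and 10.9% of receptor transcripts per length in CCl4 livers and 21.6, 19.96 and 18.9% in controls. Notch3 made up 6.30, 7.18 and 6.28% in CCl4 livers and 4.31, 5.53 and 4.61% in controls. Neither share overlapped between the groups, and this was also so when the longest annotated transcript was used as the length. Notch2 held most of the sum in every library, 70.1 to 78.0% in CCl4 livers and 69.6 to 70.8% in controls.

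**Figure D2:**
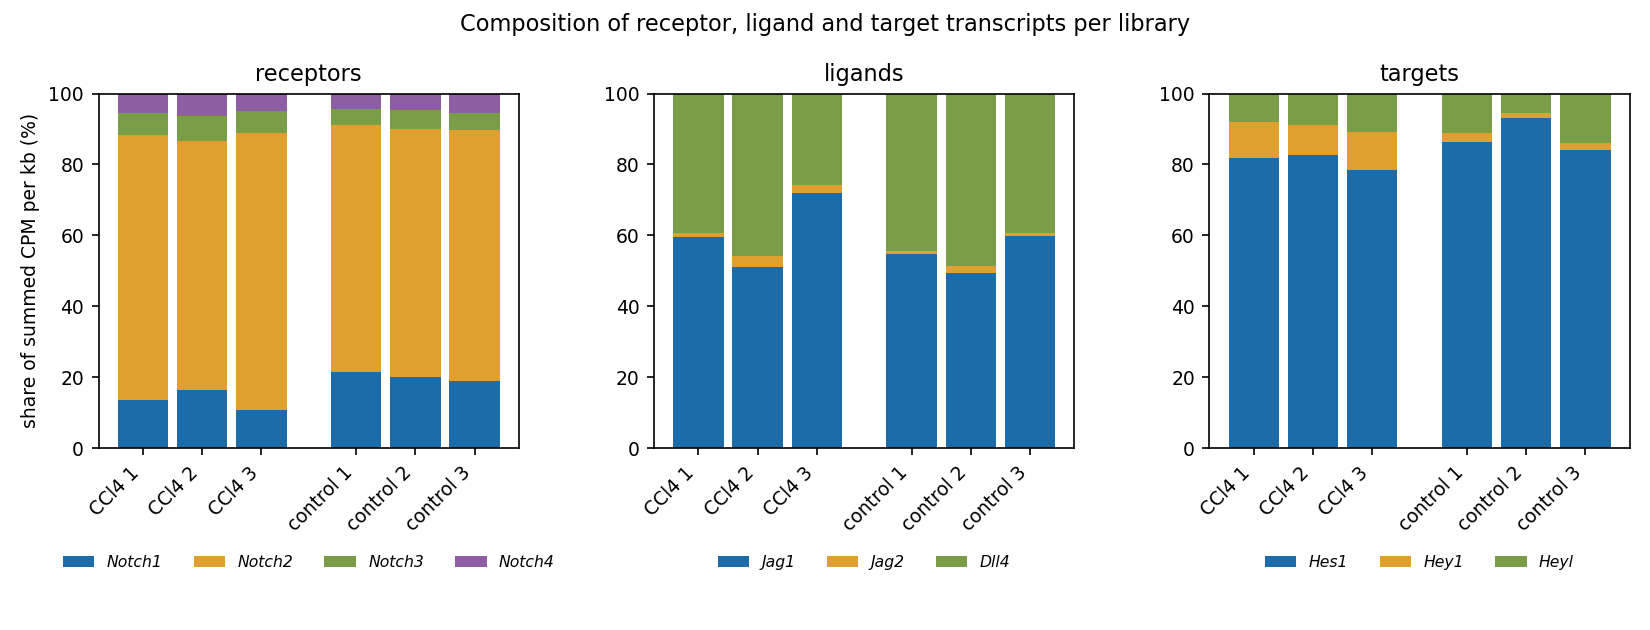
Share of each receptor, ligand and target in the summed CPM per kb of its role, as stacked bars for each library, CCl4 livers left and controls right. The Notch1 share is smaller and the Hey1 share larger in each CCl4 library than in any control, with Hey1 at 8.44 to 10.7% of the 3 targets in CCl4 livers and 1.45 to 2.53% in controls. The share of Hes1, a gene without a call, also lies apart, at 78.4 to 82.6% in CCl4 livers and 84.2 to 93.0% in controls. Shares within a role depend on each other.

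The promoters of the receptors with a call are shown because those genes moved in opposite directions. They are RefSeq windows of 250 bases before and 50 bases after the annotated start on GRCm38.p6, both on the minus strand, Notch1 at chr2:26503773-26504072 and Notch3 at chr17:32166841-32167140. Capitals mark the GC box GGGCGG or its reverse complement CCGCCC.
Notch1: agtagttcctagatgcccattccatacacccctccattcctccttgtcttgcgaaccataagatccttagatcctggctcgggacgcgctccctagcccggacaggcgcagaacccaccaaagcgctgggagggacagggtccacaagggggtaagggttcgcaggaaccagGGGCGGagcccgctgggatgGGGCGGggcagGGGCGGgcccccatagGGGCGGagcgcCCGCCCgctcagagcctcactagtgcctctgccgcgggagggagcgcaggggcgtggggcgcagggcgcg
Notch3: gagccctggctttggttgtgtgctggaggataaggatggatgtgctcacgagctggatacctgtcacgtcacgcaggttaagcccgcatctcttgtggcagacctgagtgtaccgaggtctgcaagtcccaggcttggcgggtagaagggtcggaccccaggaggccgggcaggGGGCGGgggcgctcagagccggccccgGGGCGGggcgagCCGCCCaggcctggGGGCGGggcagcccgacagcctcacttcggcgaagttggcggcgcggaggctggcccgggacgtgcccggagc
Notch1 holds 5 such matches and Notch3 holds 4, in windows with 68.3 and 70.0% G and C, against a median of 52.7% over all promoters. GGGCGG, a motif chosen after the data were seen, occurs on either strand in 35.7% of the 32851 promoter windows. It is in 5 of the 7 windows available for these genes, so it does not set the called receptors apart. Notch2 holds 7 matches (73.0% G and C), Jag2 holds 5 (86.0%) and Dll4 holds 2, all without a call. Jag1 and Notch4 hold 0. The core letters bound by RBPJ, TGGGAA or TTCCCA, occur in 25.6% of all windows and in 0 of the 7 windows of these genes in the table, those of the 4 receptors, Jag1, Jag2 and Dll4. The longer GTGGGAA, which contains TGGGAA, occurs in 6.38% of all windows and also in 0 of the 7. Hes1, Hey1 and Heyl are not in that table.

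No ligand was called. Jag1 (ENSMUSG00000027276), the ligand of bile duct formation, stood at 7.61, 7.57 and 12.2 CPM in CCl4 livers and at 7.83, 6.16 and 8.91 CPM in controls. CCl4 replicate 3 was the high library, and the other CCl4 libraries lay within the control range. The log2 fold change was 0.26 (SE 0.22, 95% interval -0.25 to 0.77, adjusted p = 0.385), and without CCl4 replicate 3 it was -0.0087 (adjusted p = 0.972). Biliary epithelial genes were also higher in CCl4 livers. Of 8 tested from that list, 5 were called higher and 0 lower, against 21.2% and 20.1% of all genes tested. The whole list's summed level was 52.7, 57.3 and 64.8 CPM in CCl4 livers and 37.4, 40.1 and 31.0 CPM in controls. Epcam, a surface protein of the bile duct lining named here after its values were seen, stood at 3.93, 4.55 and 9.97 CPM in CCl4 livers and at 2.50, 2.27 and 1.38 CPM in controls, and so was highest in CCl4 replicate 3, as Jag1 was. Krt7, a keratin of bile ducts, rose by 2.00 (adjusted p = 5.30e-04). Within CCl4 livers not every gene of the list was highest in replicate 3. Krt7 (3.43, 4.90 and 2.60 CPM), Krt19 (4.03, 4.80 and 4.47 CPM) and Sox9 (16.7, 16.2 and 13.4 CPM) were not, while the other genes of the list were. The part of biliary cells in the Jag1 values was not tested.

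Dll4 (ENSMUSG00000027314), an endothelial ligand, stood at 3.33, 4.50 and 2.90 CPM in CCl4 livers and at 4.21, 3.998 and 3.87 CPM in controls. CCl4 replicate 2 lay above all controls and the other CCl4 libraries below them, so the groups overlapped (log2 fold change -0.17, SE 0.19, 95% interval -0.59 to 0.25, adjusted p = 0.496). Jag2 (ENSMUSG00000002799) had 3, 11 and 10 counts in CCl4 livers and 3, 5 and 2 counts in controls, and did not pass the filter. Without that filter its log2 fold change was 1.11 (adjusted p = 0.235). Without CCl4 replicate 1 it passed the filter and was called, at 1.51 (adjusted p = 0.0488).

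Of the targets, Hey1 rose and Hes1 and Heyl were not called. Hey1 (ENSMUSG00000040289), a transcriptional repressor prominent in endothelium, stood at 2.27, 1.93 and 2.70 CPM in CCl4 livers (45, 39 and 55 counts) and at 0.586, 0.540 and 0.371 CPM in controls (11, 10 and 7 counts). The lowest CCl4 library lay above the highest control. The log2 fold change was 2.19 (SE 0.28, adjusted p = 2.66e-04), or 4.57-fold (95% interval 2.97 to 7.02). The call held without any 1 library (2.01 to 2.32) and in each of the 9 other settings tried, and 2.44% of all genes tested were called higher with at least this log2 fold change.

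Hes1 (ENSMUSG00000022528), a repressor made in many cell types, stood at 11.3, 11.8 and 12.4 CPM in CCl4 livers and at 12.5, 21.6 and 10.1 CPM in controls. Control replicate 2 was far above the other controls, and those lay on either side of the CCl4 range. The log2 fold change was -0.31 (SE 0.28, 95% interval -0.9999 to 0.37, adjusted p = 0.42), and it was 0.06 without control replicate 2 (adjusted p = 0.713). Heyl (ENSMUSG00000032744), a HEY family repressor, stood at 2.82, 3.21 and 4.32 CPM in CCl4 livers and at 3.99, 3.24 and 4.19 CPM in controls. CCl4 replicate 3 lay above all controls and the other CCl4 libraries below them (-0.14, SE 0.20, 95% interval -0.58 to 0.30, adjusted p = 0.603), and the sign turned with library size alone (0.010).

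**Figure D3:**
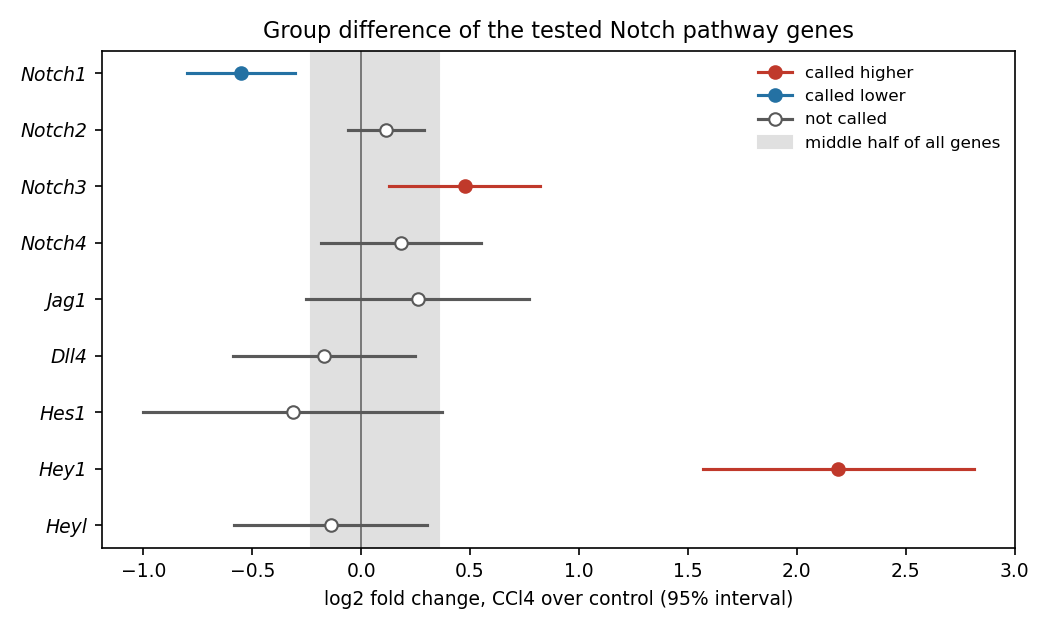
Log2 fold change, CCl4 over control, of the 9 tested genes with 95% intervals from the edgeR fit. Filled points are called genes, and the grey band is the interquartile range of all genes tested. Hey1 at 2.19 lies far to the right of the band, Notch1 at -0.55 to its left, and the intervals of the 6 genes without a call cross 0.

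In controls the order of levels per kb was Hes1 (7.22 ± 2.97 CPM per kb), Notch2 (5.55 ± 0.08), Notch1 (1.598 ± 0.107), Jag1 (1.31 ± 0.237), Dll4 (1.05 ± 0.044), Heyl (0.745 ± 0.098), Notch4 (0.389 ± 0.051), Notch3 (0.381 ± 0.048), Hey1 (0.153 ± 0.035) and Jag2 (0.026 ± 0.012). Neighbours whose ranges overlapped were Hes1 and Notch2, Notch1 and Jag1, Jag1 and Dll4, and Notch4 and Notch3. In CCl4 livers Hey1, at 0.704 ± 0.119 CPM per kb, stood beside Dll4 (0.928 ± 0.215) and Heyl (0.675 ± 0.152), with overlapping ranges. The length used matters for such orders. By the longest transcript Hes1 stood at 8.06 ± 0.356 and Notch2 at 6.17 ± 0.685 CPM per kb in CCl4 livers, while by the union of exons they were 5.81 ± 0.256 and 6.01 ± 0.667.

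The genes with profiles most like Hey1 and Notch1 were sought among tested genes with a symbol and at least 5 CPM on average, by the root mean square difference of log2 CPM over the 6 libraries after centring each gene on its own mean. The group difference is part of this distance, so genes with a similar log2 fold change tend to lie near. Nearest to Hey1 among 10122 genes were Lyz2, the lysozyme of macrophages, at 0.109, Adamts2, a procollagen protease, at 0.112, and Itga6, an integrin subunit, at 0.113. Their log2 fold changes were 2.10, 1.89 and 1.95, beside 2.19 for Hey1. Whether Hey1 shares a cell type with any of them was not tested. Lyz2 stood at 298 ± 26.05 CPM in CCl4 livers and 69.5 ± 10.2 CPM in controls (SD, n = 3 each). Nearest to Notch1 were Srsf4, a splicing factor gene, at 0.0446, and the uncharacterised transcripts 9330162012Rik and A730017L22Rik at 0.0612 and 0.0617. Srsf4 stood at 10.9 ± 1.34 CPM in CCl4 livers and 16.1 ± 0.73 CPM in controls.

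A list of 72 genes of the wider pathway, the 10 genes included, held 59 tested genes, of which 12 were called higher and 13 lower (median log2 fold change -0.04). That is 25 of 59, set against 41.3% of all genes. The split depended on the scaling, with 15 higher and 8 lower under upper quartile scaling and 22 and 6 with library size alone, where all genes split into 4824 higher and 1676 lower, against 3303 and 3124 in TMM. Kyat1, an aminotransferase gene that entered the list of corepressors by mistake, is among those called lower, and without it 12 were lower.

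Among ligand ubiquitin ligases, 2 of 4 were called higher and 1 lower, and of 5 glycosyltransferases 1 was called higher. The shares of all genes tested were 21.2% higher and 20.1% lower. Neurl1b, a ubiquitin ligase that drives ligand uptake, stood at 11.2, 14.7 and 8.06 CPM in CCl4 livers and at 1.44, 1.51 and 1.11 CPM in controls (log2 fold change 3.06, SE 0.26, adjusted p = 4.93e-05). Its relative Neurl1a stood at 0.857, 0.940 and 1.33 CPM in CCl4 livers (17, 19 and 27 counts). In controls Neurl1a stood at 0.319, 0.270 and 0.212 CPM (6, 5 and 4 counts). The log2 fold change of Neurl1a was 1.94 (SE 0.35, adjusted p = 0.00193), but it rests on low counts and was not tested under the stricter filter. For Neurl1b and Neurl1a alike, every CCl4 library lay above every control. Mib1, another ligand ubiquitin ligase, fell by 0.23 on the log2 scale (adjusted p = 0.0164), and its call was lost without CCl4 replicate 2 (0.0671) or control replicate 3 (0.053). Lfng, the fringe enzyme that extends O-fucose sugars on Notch, rose to 4.75 ± 0.086 CPM in CCl4 livers, against 3.06 ± 0.227 CPM in controls (0.63, adjusted p = 0.00608), and the other 4 glycosyltransferases were not called.

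Of the proteases that cut the receptor, the shedding enzymes Adam10 and Adam17 rose and Furin, which cleaves the precursor, fell. Adam10 stood at 58.8, 58.8 and 59.1 CPM in CCl4 livers and at 47.4, 46.5 and 43.9 CPM in controls (0.36, SE 0.05, adjusted p = 6.45e-04). The log2 fold change of Adam17 was 0.31 (adjusted p = 0.00283) and that of Furin was -0.32 (adjusted p = 0.00303). Of 7 gamma-secretase genes, Aph1c (1.51, adjusted p = 1.15e-04) and Aph1b (0.52, adjusted p = 0.0192) were called higher and the other 5 were not called. For comparison, 21.2% of all genes tested were called higher and 20.1% lower. Aph1b and Aph1c are close paralogs, so their separate values are uncertain. The call of Aph1b was lost without CCl4 replicate 1 (0.0564), CCl4 replicate 2 (0.0719), control replicate 1 (0.0764) or control replicate 2 (0.0652), and in DESeq2 (0.0685).

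**Figure D4:**
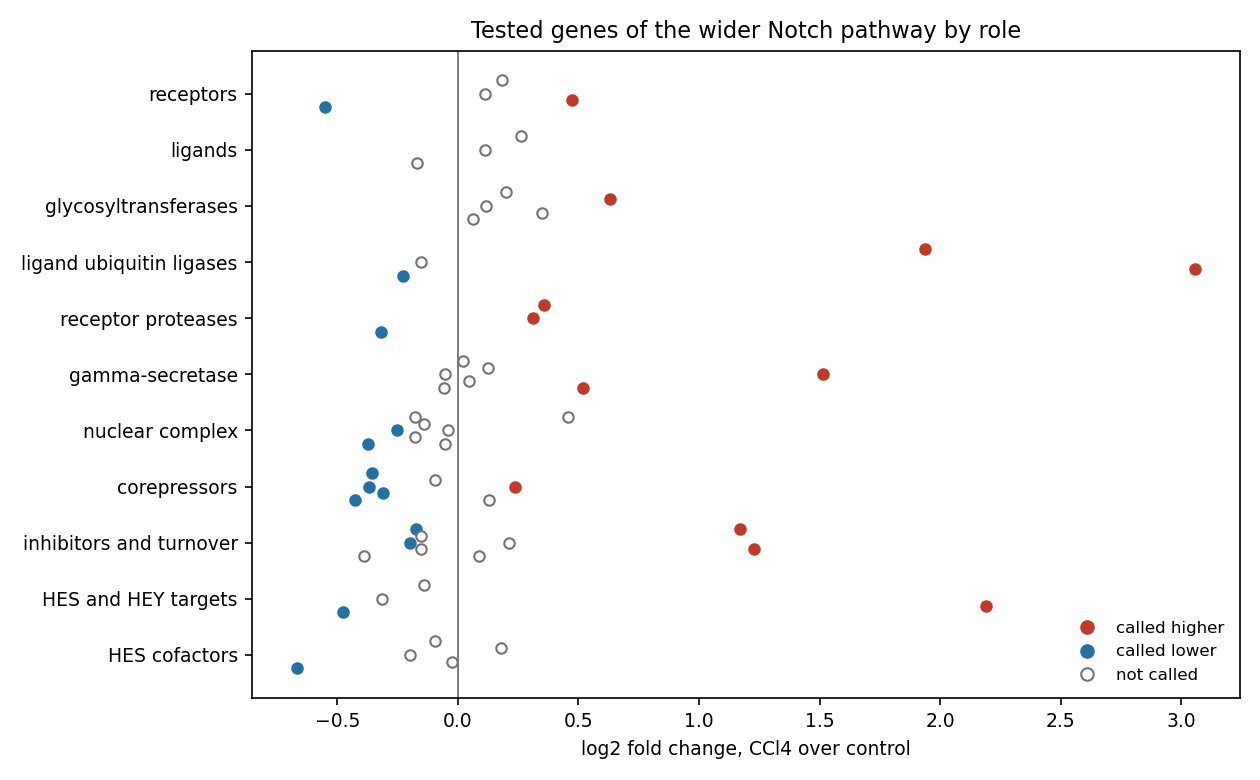
Log2 fold change, CCl4 over control, of the 59 tested genes of the wider Notch pathway, 1 point per gene, with 1 line per role. Filled points are called genes. Neurl1b at 3.06 and Hey1 at 2.19 stand furthest to the right. The 2 called genes of the nuclear complex and the 1 of the HES cofactors lie left of 0. The 2 called gamma-secretase genes and the 1 called glycosyltransferase lie right of it.

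In the nuclear complex, 0 of 8 tested genes were called higher and 2 lower, against 21.2% and 20.1% of all genes tested. Rbpj itself stood at 18.7 ± 2.01 CPM in CCl4 livers and 21.2 ± 0.965 CPM in controls (-0.18, SE 0.09, adjusted p = 0.147). Those called were the acetyltransferase Kat2b (-0.37, adjusted p = 9.28e-04) and the coactivator Maml1 (-0.25, adjusted p = 0.0244). The call of Maml1 was lost without CCl4 replicate 1 (0.0925), CCl4 replicate 2 (0.0629) or control replicate 1 (0.0903), and in DESeq2 (0.0844). The corepressors Ncor1 (-0.43, adjusted p = 3.17e-04) and Spen (-0.37, adjusted p = 0.00331) fell, as did Kyat1 (-0.36, adjusted p = 0.0291). Leaving out any control ended the call of Kyat1 (0.0909, 0.0587 and 0.0667 without control replicates 1, 2 and 3), which stood at -0.23 without CCl4 replicate 3. The deacetylase Hdac1 was called higher at the edge of the threshold (0.24, adjusted p = 0.0499). Leaving out CCl4 replicate 1 (0.169), CCl4 replicate 2 (0.137), control replicate 1 (0.0551), control replicate 2 (0.145) or control replicate 3 (0.143) ended that call, as did DESeq2 (0.154) and limma-voom (0.0586).

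Among inhibitors and turnover factors, Dtx3, a Deltex family ubiquitin ligase, stood at 11.5, 13.7 and 14.2 CPM in CCl4 livers and at 5.43, 5.94 and 5.46 CPM in controls (1.23, SE 0.12, adjusted p = 5.41e-05). Numbl, a relative of the Notch antagonist Numb, rose by 1.17 (adjusted p = 0.00581), and Numb itself fell by 0.20 (adjusted p = 0.0197). The ubiquitin ligase Itch fell by 0.17 (adjusted p = 0.0213). The call of Numb was lost without CCl4 replicate 1 (0.0598), CCl4 replicate 2 (0.0722) or control replicate 1 (0.0719), and in DESeq2 (0.0593). That of Itch was lost without CCl4 replicate 1 (0.0513), CCl4 replicate 2 (0.0581) or control replicate 3 (0.0654), and in DESeq2 (0.0609). Among the HES and HEY genes, Hes6, an antagonist of Hes1, fell by 0.48 (SE 0.13, adjusted p = 0.0189), a call lost without CCl4 replicate 2 (0.0634), control replicate 1 (0.0585) or control replicate 3 (0.0652). Tle1, a corepressor that HES proteins recruit, stood at 28.2, 31.3 and 32.0 CPM in CCl4 livers and at 49.3, 48.2 and 47.6 CPM in controls (-0.67, SE 0.06, adjusted p = 5.57e-05), while the other 4 HES cofactors were not called. With library size alone the calls of Mib1, Maml1, Kyat1, Numb, Itch and Hes6 were lost (adjusted p 0.0966 to 0.713).

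Besides Jag2, 12 genes of the wider list were too low to be tested. Hes3 had 0 counts in all 6 libraries, which allows up to 0.162 CPM in a library. Hes2, Hes5, Hes7, Rbpjl, Dll3 and Dlk2 had 1 to 8 counts over the 6 libraries together. The Notch feedback target Nrarp had 17 counts in CCl4 livers and 16 in controls, and the target Hey2 had 20 and 12. Bend6, a corepressor of Notch targets, had 36 and 10, and Dlk1, a non-canonical ligand of fetal liver, had 30 and 6, of which 21 were in CCl4 replicate 3. The ligand-like gene Dner had 16 and 1, all 16 in CCl4 replicate 3.

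Markers of the cells that carry these genes are given beside them. For their counts of calls, 21.2% of all genes tested were called higher and 20.1% lower. Of 10 pan-endothelial genes, 0 were called higher and 1 lower. Their summed level was 242, 218 and 241 CPM in CCl4 livers and 233, 246 and 226 CPM in controls, so the groups overlapped. The gene called lower was the VEGF receptor Kdr (-0.18, adjusted p = 0.0397), and its call was lost without CCl4 replicate 2, CCl4 replicate 3, control replicate 1 or control replicate 2 (0.09 to 0.116), with upper quartile scaling (0.255), library size alone (0.639) or the stricter filter (0.0514), and in DESeq2 (0.106). Of 10 sinusoidal endothelial genes, 3 were called higher and 1 lower, with summed levels of 407 to 453 CPM in CCl4 livers and 378 to 411 CPM in controls. The transcription factor gene Maf was among those higher (0.45, adjusted p = 4.49e-04). Of 8 tested genes of vessel and capillary endothelium, 3 were called higher and 0 lower. That list summed to 90.7 to 101 CPM in CCl4 livers and 71.4 to 84.6 CPM in controls, without overlap. Among them Cd34, a capillary surface protein, stood at 8.61 ± 1.62 CPM in CCl4 livers and 2.72 ± 0.741 CPM in controls (1.66, adjusted p = 3.12e-04). The most abundant genes of these 3 lists, Stab2 (-0.07, adjusted p = 0.334), Eng (-0.05, adjusted p = 0.53) and Plvap (0.14, adjusted p = 0.255), were not called, though Plvap was called higher with library size alone (0.28, adjusted p = 0.0213). The part of these cells in the Hey1 and Notch1 values was not tested.

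For Notch3, the stellate cell and pericyte list had 4 of 9 tested genes called higher and 0 lower. Over all genes tested, the shares to set beside this and the lists below were 21.2% higher and 20.1% lower. The stellate cell and pericyte list summed to 248 to 303 CPM in CCl4 livers and 201 to 218 CPM in controls. Lrat, the retinol esterifying enzyme of stellate cells, rose by 0.75 (adjusted p = 5.06e-05), and Reln stood at 82.7 ± 13.6 CPM in CCl4 livers and 67.9 ± 10.5 CPM in controls, without a call. Of 5 tested genes of smooth muscle and myofibroblasts, 1 was called higher, Lmod1 (1.19, adjusted p = 0.0356), a call lost without CCl4 replicate 1, CCl4 replicate 2, control replicate 2 or control replicate 3 (0.0676 to 0.104) and in DESeq2 (0.161). The summed level of that list was 16.9 to 22.8 CPM in CCl4 livers and 5.41 to 18.6 CPM in controls, and Acta2, the smooth muscle actin, was not called (1.07, adjusted p = 0.189), though it was without control replicate 3 (0.60, adjusted p = 0.0351). Macrophage genes (6 of 8 higher, 0 lower) and proliferation genes (8 of 8 higher) rose as well, Cd68 by 1.92 (adjusted p = 3.91e-06) Plk1 by 3.88 (adjusted p = 1.04e-04) and Mki67 by 3.57 (adjusted p = 0.00197), while the Kupffer cell gene Clec4f was not called (adjusted p = 0.76). Of 8 hepatocyte genes, 1 was higher and 3 lower, among them Tat (-0.27, adjusted p = 0.0123), whose call was lost without control replicate 3 (0.0506), with upper quartile scaling (0.0505) and with library size alone (0.158). No marker list had a member at 0 in every library. Their part in the Notch3 values was not tested.

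**Figure D5:**
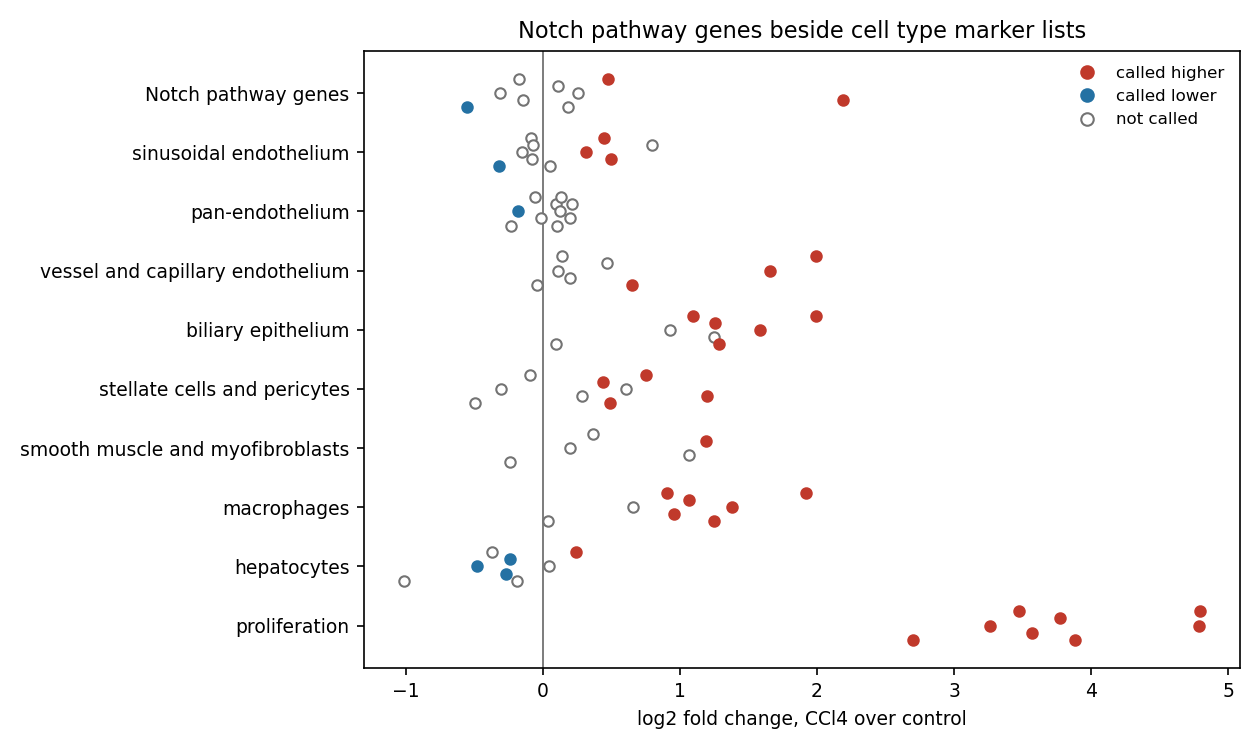
Log2 fold change, CCl4 over control, of the 9 tested Notch pathway genes in the top line and of the tested genes of 9 cell type marker lists below, 1 point per gene. Filled points are called genes. The Notch pathway genes spread over both sides of 0, as the sinusoidal endothelial genes do. The biliary, macrophage and proliferation genes called in the test all lie right of 0. So do those called among vessel and capillary endothelium, stellate cells and pericytes, and smooth muscle and myofibroblasts (1 gene).

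Some annotated transcripts share ground with these genes. Gm42820, on the same strand as Notch2 and with exons that overlap its exons, held 47 counts over the 6 libraries. Exons of antisense transcripts overlap exons of Notch1 (0610009E02Rik and Gm13568), Notch3 (Gm17276) and Dll4 (Gm14207), and their rows held 59, 0, 28 and 64 counts over the 6 libraries. The strand setting of the counting is not given, so reads from these antisense pairs cannot be told apart with certainty.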

How the data were processed

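Messenger RNA from mouse liver was sequenced in 6 libraries, 3 of the CCl4 group and 3 of the oil group. Per the series' design text, the authors trimmed adapters, removed low-quality reads and aligned the rest with HISAT2, and per the submitters' processing notes reads were counted with featureCounts. The sources used here give no version, genome build, annotation or strand setting. What the authors deposited are unnormalised counts, 1 row a gene. Symbols and exon lengths came from GENCODE M21, which matched 52083 of 55359 Ensembl identifiers, and promoter sequences from RefSeq (GRCm38.p6).

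Counts were fitted in R 4.3.3 with edgeR 4.0.16 (filterByExpr, TMM, glmQLFit with robust estimation, glmQLFTest) and adjusted by the Benjamini-Hochberg method over 15579 genes. The SE was taken as the size of the log2 fold change over the root of the F statistic. Alternatives were other scalings, other filters, DESeq2 1.42.0, limma-voom (limma 3.58.1), a minimum fold change of 1.5, a replicate block, and leaving out each library. A list without Kyat1 was added after seeing the data. On simulated counts for this comparison with 14896 genes tested, the test recovered 92 of 100 genes given a log2 change of 1 and 99 of 100 given 2, with 15 false calls among 14696 unchanged genes. Changes were given only to genes above a minimum level in controls, and Hey1 and Neurl1a lay below it. The changes of Notch1 (-0.55) and Notch3 (0.48) were smaller than those simulated. In the real data a far larger share of genes, 41.3%, was called. Counts carry no molecular identifiers, so the limit for a count of 0, taken as 3 counts, covers counting error only.

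The members and lists were chosen with earlier results of these data known. Named were the 10 genes, called or untested genes of the wider list, per marker list the called gene of smallest p and the most abundant gene, and the 3 nearest profiles. Some genes that this rule names are not reported here.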

Additional observations from a re-analysis of the deposited data

How the results depend on the processing

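Hey1 and Notch1 kept their calls under the other scalings and filters, DESeq2, limma-voom, the replicate block and each left-out library, and Hey1 also at a minimum fold change of 1.5, where Notch1 did not (adjusted p = 1.0). The number of the 10 genes called higher, 2 in the fit as reported, was 3 with library size alone, where Notch2 joined them, 1 with no filter, 1 in DESeq2 and 1 at a minimum fold change of 1.5, and 1 to 2 without any 1 library. The number called lower, 1, was 0 at that minimum fold. Signs turned for Jag1 (-0.0087 without CCl4 replicate 3, within a range up to 0.38 without any 1 library), Hes1 (0.062 without control replicate 2, within a range down to -0.53) and Heyl (0.010 with library size alone), and for the uncalled markers Stab2 (0.015 and 0.076) and Eng (0.032 and 0.093) with upper quartile scaling and library size alone. Clec4f ranged from -0.035 to 0.12 without any 1 library. The cause was not tested.

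For the wider list, 12 higher and 13 lower became 22 and 6 with library size alone, 15 and 8 with upper quartile scaling, and 5 and 0 at the minimum fold. The lower count ran from 8 to 15 and the higher count from 9 to 12 without any 1 library. Over all genes, 1676 were lower with library size alone, and 1309 were higher and 380 lower at the minimum fold. Library size alone moved the median of all genes to 0.147 and took Furin to -0.17, Kat2b to -0.23, Spen to -0.22 and Ncor1 to -0.28. Upper quartile scaling ended the calls of Mib1 (0.0988), Maml1 (0.113), Numb (0.144), Itch (0.187) and Kyat1 (0.0771). Of the 22 called genes of the wider list outside the 10, 14 held their calls without any 1 library.

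Same-numbered libraries deviated together only weakly at most (correlations of deviations 0.048, 0.004 and 0.064), so the numbers were not taken as pairs. With the replicate block 6416 genes were called, against 6427 without it, and 13 higher and 13 lower genes of the wider list. Reln, not called without the replicate block (adjusted p = 0.183), was called higher with it (0.28, adjusted p = 0.00458). Each CCl4 replicate did correlate best with the control of its own number, at the low values above. CCl4 replicate 1 and control replicate 3 correlated at -0.080, and control replicate 2 correlated best with CCl4 replicate 1 (0.037).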

Other observations

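Some genes of the wider pathway were too low for the filter and were called when it was dropped. With no filter on low counts, Bend6 was called higher (log2 fold change 1.69, adjusted p = 0.0195), with 9, 7 and 20 counts in CCl4 livers and 3, 4 and 3 in controls, and DESeq2 gave 1.73 without a call (adjusted p = 0.115). Dlk1 was called higher there as well (2.13, adjusted p = 0.0436), with 5, 4 and 21 counts in CCl4 livers and 3, 3 and 0 in controls, and in DESeq2 it was not called (adjusted p = 0.144). In both genes the highest value lay in CCl4 replicate 3. That library, the least like the others of its group over all genes, also held all 16 CCl4 counts of Dner.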
